A study of Homo sapiens with 16 samples.

Results

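The genes described here are FOXA1, GATA2, MEIS1, MEIS2 and GRHL2, read through every peak that 12 chromatin libraries of 2 prostate cancer cell lines placed around them. Peaks were chosen by overlap with 5 fixed hg19 windows, 1 per gene, that together span 1.08 Mb. The windows were drawn when peak calls of the same libraries were already known, so the number of peaks in them is a description and was not tested. In all, 399 of the 816313 peaks in the 12 lists met a window: 64 at FOXA1, 31 at GATA2, 62 at MEIS1, 68 at MEIS2 and 174 at GRHL2. The windows were chr14:38010000-38120000 for FOXA1, chr3:128150000-128270000 for GATA2, chr2:66610000-66850000 for MEIS1, chr15:37130000-37450000 for MEIS2 and chr8:102450000-102740000 for GRHL2. Where a peak lies relative to exons, introns or start sites was not analysed here, because no hg19 annotation was used.

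The series holds 16 samples of LNCaP, an androgen-sensitive prostate cancer line, and PC-3, an androgen-independent one. Chromatin immunoprecipitation sequencing (ChIP-seq) mapped HOXB13, the histone deacetylases HDAC1 and HDAC3, and H3K27ac, the acetylated form of histone H3 that is found at promoters and enhancers in use. ATAC-seq, made from 50000 cells, mapped open chromatin. The 4 LNCaP H3K27ac samples were not analysed here. LNCaP cells carried the control shRNA vector pGIPZ (HOXB13, HDAC3, HDAC1 and ATAC-seq libraries), the hairpin shHOXB13 (HOXB13, HDAC3 and ATAC-seq), or shHOXB13 together with a lentivirus for HOXB13-WT or for HOXB13-G84E, a missense variant (HOXB13 ChIP only). All LNCaP infections lasted 7 days. PC-3 cells carried pGIPZ (HOXB13 and H3K27ac) or shHOXB13 (H3K27ac), and the labels give no number of days for them. In the re-expressing cells the hairpin is still present, and the lentivirus supplies HOXB13 outside its own locus. The HOXB13 antibody used in PC-3 came from another supplier than the one used in LNCaP. Below, control means pGIPZ and knockdown means shHOXB13, while WT and G84E name the 2 re-expressing cultures.

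HOXB13 is a homeobox protein that marks the prostate lineage and binds DNA in part together with MEIS proteins. FOXA1 is a forkhead pioneer factor that opens chromatin for other transcription factors, and GATA2 is a zinc-finger factor that acts with it at prostate enhancers. MEIS1 and MEIS2 are TALE-class homeobox proteins that bind alongside HOX proteins, and GRHL2 is a grainyhead-like factor that maintains epithelial gene programmes. HDAC3 is the deacetylase of the NCOR and SMRT corepressor complexes, and HDAC1 works in other corepressor complexes. The measurements here are of chromatin around these genes and not of their transcripts.

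Promoter sequences were taken from RefSeq on GRCh38.p14, a different build from the peak lists, so no peak could be placed on them. Of the 5 genes, 4 matched 6 promoters in that table: 1 for FOXA1, 2 for GATA2, 1 for MEIS1 and 2 for MEIS2. The 250 bases before each start were searched on both strands for short motifs of the factors named here. Only 1 match was found, the HOXB13 motif CAATAAA read as TTTATTG in 1 of the 2 MEIS2 promoters, and it overlapped no other motif. This motif occurred in 3.66% of all 35116 promoters searched in the same way. None of the 6 held the other HOXB13 motif, TCGTAAA, which 0.444% of all promoters had. None held TGTTTAC of forkhead factors, present in 2.98%. None held AGATAA, a motif of the zinc-finger family to which GATA2 belongs, present in 9.17%. None held the MEIS motif TGACAG, present in 13.0%. None held the GRHL motif AACCGGTT, present in 0.117%. The match is a run of letters and not a measured site. The MEIS2 stretch is shown for this motif, in capitals, and the FOXA1 sequence because its window carried the strongest H3K27ac.
MEIS2, chr15:37098740-37098769, minus strand: ttcgccttttgaTTTATTGgatcctcagag
FOXA1, chr14:37595250-37595499, minus strand: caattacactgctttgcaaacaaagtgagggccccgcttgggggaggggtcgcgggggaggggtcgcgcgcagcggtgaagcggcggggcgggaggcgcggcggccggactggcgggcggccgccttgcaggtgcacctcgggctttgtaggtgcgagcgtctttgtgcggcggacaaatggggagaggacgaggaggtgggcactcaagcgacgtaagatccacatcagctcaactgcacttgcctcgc

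Every level below is a normalized tag count, that is, the tags in a peak scaled to a library of 10000000 tags. Library depth ranged from 13.5 M to 47.2 M tags (M, mega). Each condition had 1 library, and conditions were therefore compared without a test or p-value. Intervals of ratios are exact 95% intervals from recovered tags and cover counting error only. A place that is not called is not a place without signal, since a factor peak also had to exceed its surroundings of 10000 bp by 4-fold. The knockdown library itself held a smaller share of its tags in HOXB13 peaks, 2.13% against 9.17% in the control. Peaks of the 10 factor lists that overlapped were joined into 174 sites, of which 92 were called in 1 factor list only and 6 in at least 6 of the 12 lists.

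The windows differed in how densely they were occupied. Against the density of each whole list over the 2000 Mb genome size given in the headers, the GRHL2 window held 1.51 times the control HOXB13 density, 2.05 times the PC-3 HOXB13 density and 2.23 times the control ATAC density. That size was not checked against the length of hg19, and a larger one would raise every ratio by the same factor. Whether a window lies above or below 1 depends on it, while the order of windows within a list does not. The FOXA1 window held 2.14 times the control HDAC3 density and 2.17 times the PC-3 H3K27ac density. At GATA2 the HDAC1 density was 3.01 times that of the list, from 3 peaks, while control HOXB13 stood at 0.547 times and PC-3 H3K27ac at 0. On this scale the MEIS2 window was sparse in nearly every list, with 0.410 times the control HOXB13 density and 0.169 times the control ATAC density. No ATAC peak was called at MEIS1 in either library. Control HOXB13 peaks carried on outside the windows: the nearest ones lay 1.41 kb beyond the FOXA1 window (normalized tag count 7.57, against 12.5 for the last peak inside) and 13.4 kb beyond the GRHL2 window (7.86, against 47.7 inside). On the other side the outer peak was the stronger at GRHL2 (25.6 at 13.8 kb, against 14.6 inside) and at GATA2 (20.4 at 45.4 kb, against 9.31 inside).

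**Figure D1:**
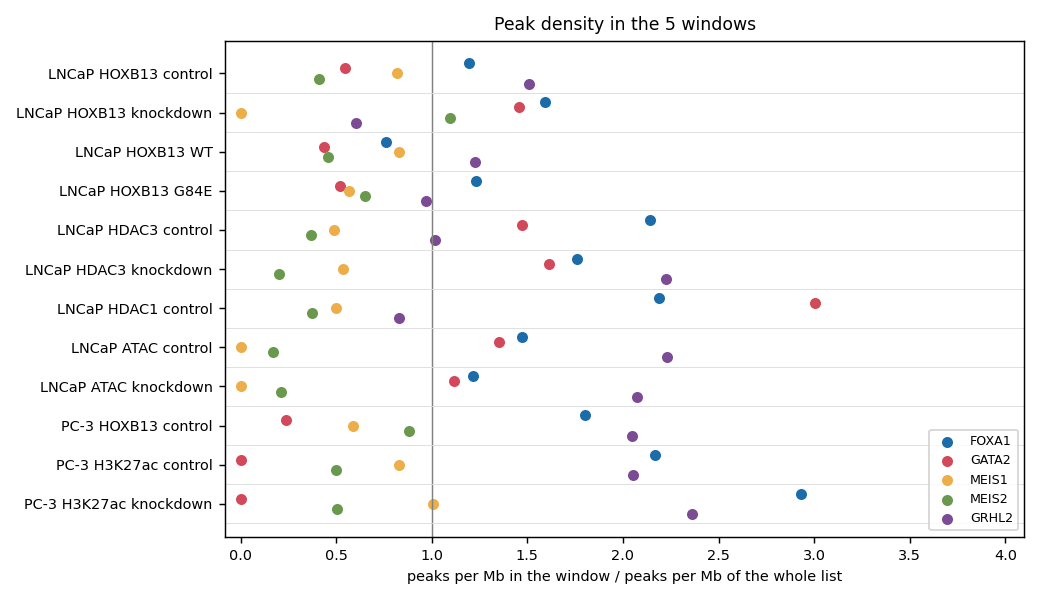
Peaks per Mb in each window divided by peaks per Mb of the whole list (horizontal axis, no unit), for the 12 libraries; each point is 1 window. GRHL2 and FOXA1 lie to the right of the line at 1 in most lists, MEIS2 lies to the left in all lists but the HOXB13 knockdown, and GATA2 reaches 3.01 for HDAC1.

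HOXB13 peaks of the control went uncalled in all 5 windows after knockdown, and most were called again with either re-expressed form. None of the 44 control peaks was called in the knockdown library, which allows a share of up to 8.03% (Wilson 95% bound), beside 1.48% of the whole control list. WT met 33 of the 44, beside 67.4% of the list, and G84E met 28 of the 44, beside 63.2%. Both shares lie near the background of their lists. By window, WT met 3 of 6 control peaks at FOXA1, 1 of 3 at GATA2, 7 of 9 at MEIS1, 6 of 6 at MEIS2 and 16 of 20 at GRHL2. G84E met 3, 2, 6, 4 and 13 of the same peaks.

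The control sites that both forms shared included the strongest ones, although the ranges overlap. At the 25 sites called in control, WT and G84E, the median control count was 12.5 (5.53 to 47.7), against 6.54 (4.07 to 8.73) at the 12 sites shared with 1 form only. At the 7 control sites that neither form met, the median was 8.15 (5.24 to 11.3), and the highest of these was a FOXA1 site. WT and G84E also shared 19 sites that the control lacked, 28 sites were called with WT alone of these 3 libraries and 31 with G84E alone. For the 19 shared sites the share over the whole lists was not computed. The WT and G84E lists were larger than the control list, with 190879 and 191796 peaks against 91430. Sites called with 1 form alone had medians below those of their lists. The median was 5.46 (3.97 to 14.9) for WT, whose list median was 6.46. For G84E it was 5.43 (4.3 to 12.7), beside 6.34 for the list. Of the 80 WT peaks, 44 were met by G84E, beside 55.0% of the list, and of the 79 G84E peaks 44 were met by WT, beside 54.8%. Of the WT peaks, 28 of 80 met neither control nor G84E, beside 38.6% of the list, and of the G84E peaks 31 of 79 met neither control nor WT, beside 40.9%, so both are near background. By window, WT alone and G84E alone had 2 and 7 at FOXA1, 2 and 2 at GATA2, 7 and 2 at MEIS1, 5 and 12 at MEIS2, and 12 and 8 at GRHL2, and these small counts were not tested against each other.

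The knockdown library had 10 HOXB13 peaks of its own in the windows, and none of them lay at a control peak, beside 5.92% of its whole list. Of these, 4 shared a site with HDAC1, HDAC3 or ATAC peaks and 6 stood alone. The matching share of the whole knockdown list was not computed. Their folds over local background ran from 4.12 to 6.11, beside a list median of 5.3 and a cut-off of 4. The highest count was at FOXA1 (12.3, in a site with HDAC1 and with HDAC3 of the knockdown), the next at GATA2 (9.11, no other list), and MEIS1 had none.

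**Figure D2:**
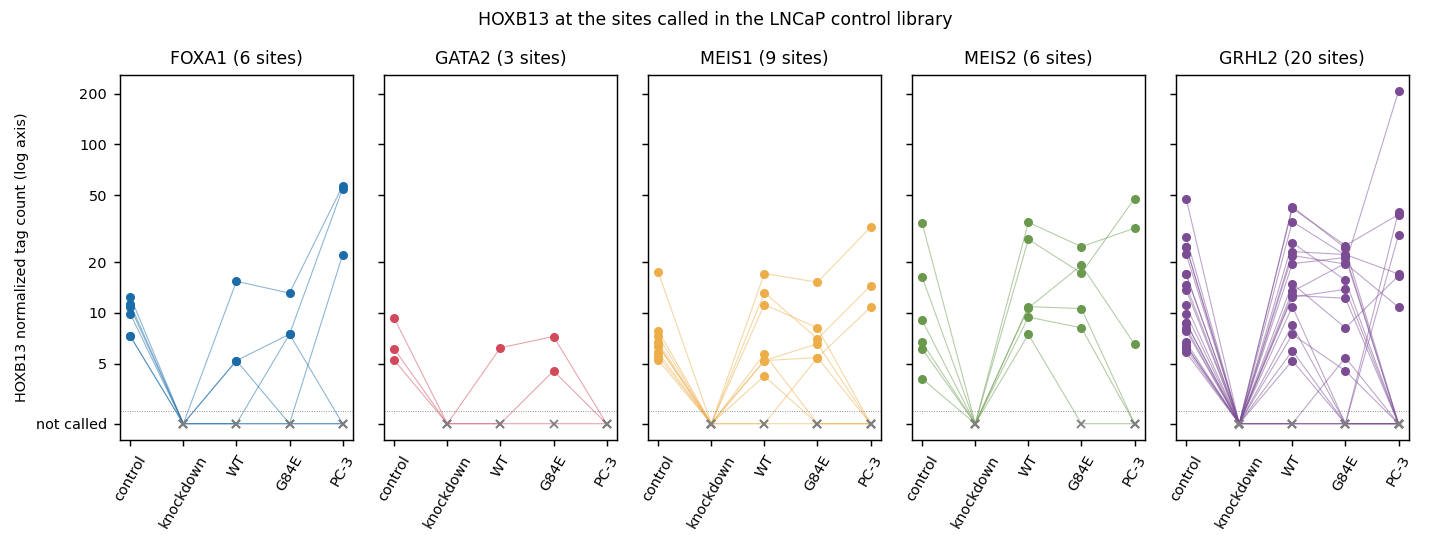
HOXB13 normalized tag count (vertical axis, log scale) at the 44 sites called in the LNCaP control, by window; each line is 1 site across the control, knockdown, WT and G84E libraries of LNCaP and the PC-3 control, and crosses mark a library with no call. All sites drop to not called in the knockdown, and the highest point is the PC-3 peak of 206.8 at GRHL2.

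At FOXA1, the site with the most lists was chr14:38015572-38016454, called in 7 of 12. Its HOXB13 count was 11.3 in the control and 22.1 in PC-3, and it was called with neither WT nor G84E. HDAC3 was 13.9 in control cells and 12.9 in knockdown cells (log2 ratio -0.11), and ATAC was called in the control only, at 4.15. It is 1 of 2 sites with control HOXB13, HDAC3 and ATAC together. The PC-3 H3K27ac region over it had 48.1 in the control and 105 after knockdown.

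A second FOXA1 site, chr14:38110088-38110748, had HOXB13 from all 3 LNCaP forms. HOXB13 was 12.5 in the control, not called after knockdown, 15.4 with WT, 13.1 with G84E and 56.8 in PC-3, the highest PC-3 peak of the window. HDAC3 was 13.4 and then 11.8 after knockdown (log2 ratio -0.18), and no PC-3 H3K27ac region covered the site. The last of them, chr14:38035790-38036602, had 7.28 in the control, 7.47 with G84E, no call with WT, HDAC3 of 10.7 in the control only, and 54.6 in PC-3. These 3 FOXA1 sites were the ones called in at least 6 lists, and PC-3 HOXB13 was called at each.

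**Figure D3:**
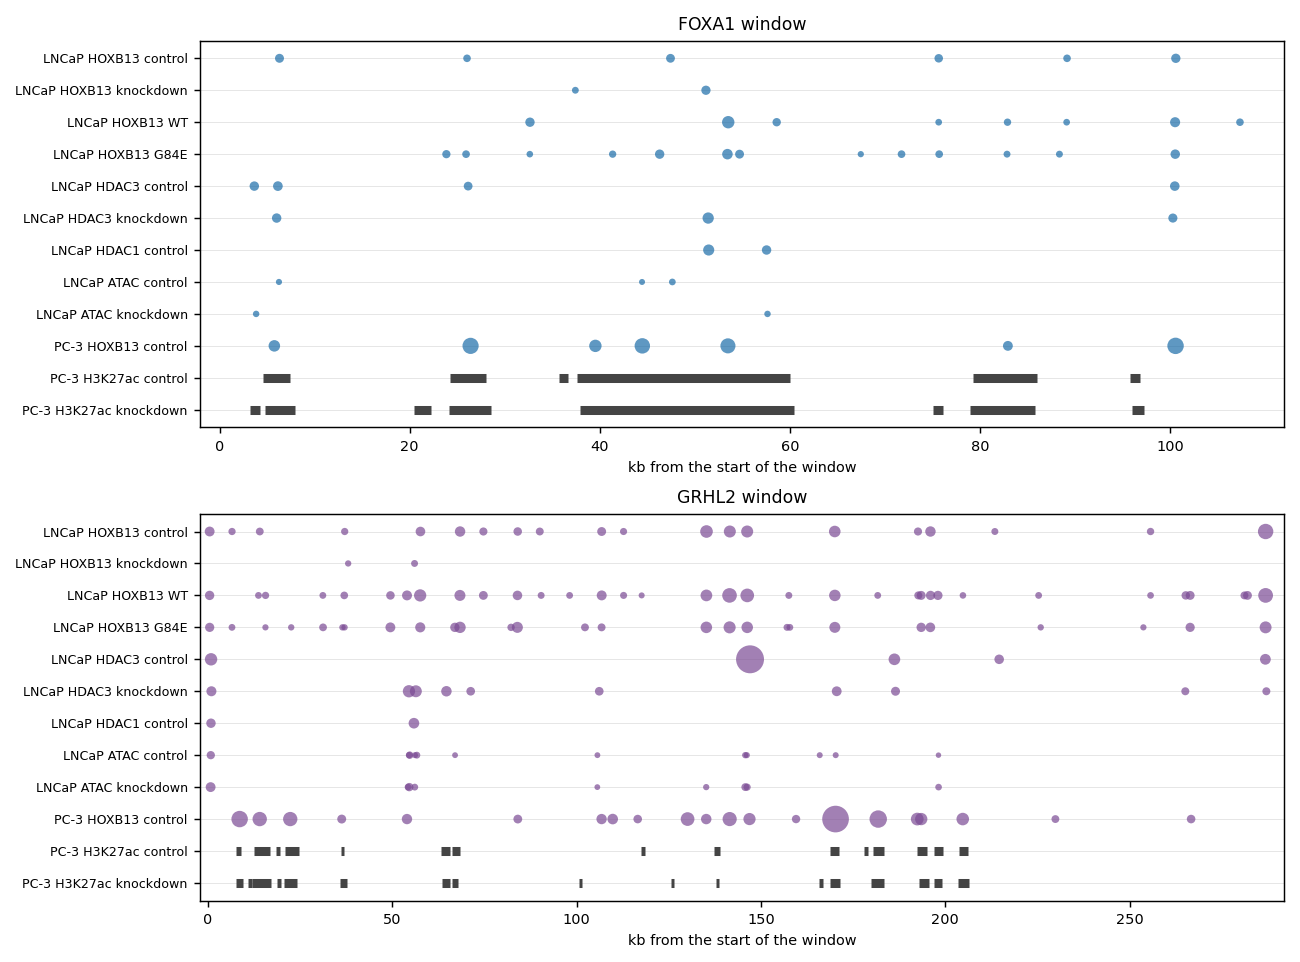
Peaks of the 12 libraries in the FOXA1 and GRHL2 windows by distance from the window start (horizontal axis, kb); points are factor and ATAC peaks, with area growing with the normalized tag count, and bars are H3K27ac regions to scale. The FOXA1 domain of PC-3 H3K27ac is the longest bar of its window, and the largest GRHL2 points are control HDAC3 and PC-3 HOXB13.

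Within FOXA1, the strongest HOXB13 signal of re-expressing cells fell where the control had no peak. At chr14:38063279-38063669, WT reached 26.8 and G84E 17.4 (G84E over WT, log2 ratio -0.62, interval -1.06 to -0.19), with 45.2 in PC-3 and no call in control or knockdown. At chr14:38042495-38042791, WT was 12.7 and G84E 4.98 (log2 ratio -1.35, interval -2.14 to -0.60), which was the only ratio past 2-fold between the 2 forms in the windows. A control site at chr14:38085499-38085833 had 9.89 in the control, 5.21 with WT and 7.47 with G84E, the only FOXA1 peak at which G84E was above WT. The interval of WT over control there was -1.78 to -0.10 on the log2 scale.

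GATA2 had few HOXB13 peaks, and its 3 control HDAC3 peaks (26 to 31.5) were above their list median of 15.3. Its HDAC1 peaks ran from 10.7 to 43.7, beside a list median of 17.2. Control HOXB13 peaks were 9.31, 6.11 and 5.24, and the single site with all 3 forms, chr3:128263924-128264307, had 6.11 in the control, 6.21 with WT and 7.24 with G84E. PC-3 had 1 HOXB13 peak (13), at a place no LNCaP list called. None of the 3 control HDAC3 peaks touched a control HOXB13 peak, and all 3 shared a site with HDAC1.

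The strongest HDAC1 peak of the windows was at chr3:128206759-128207374 of GATA2, with a count of 43.7. HDAC3 was 26 there in the control and not called after knockdown. The fold over local background was 4.12 for this HDAC1 peak and 4.71 for the control HDAC3 peak, near the 4-fold cut-off. A pair of ATAC peaks flanked the HDAC1 peak in both libraries, 8.03 and 8.63 for the first (log2 ratio 0.10) and 11.1 and 10.2 for the second (log2 ratio -0.12). At chr3:128153903-128154549, HDAC3 was 31.5 in control and 17.5 in knockdown cells (log2 ratio -0.85, interval -1.42 to -0.29), with HDAC1 at 10.7 and a weak HOXB13 peak of 4.45 in the knockdown. At chr3:128215948-128216561, HDAC3 was 26 and 18.6 (log2 ratio -0.48) and HDAC1 was 19.3. Both HDAC3 ratios stand beside a median of -0.44 over the whole lists, and centred on it they were -0.41 and -0.04. The 3 HDAC3 peaks lay 2.05 to 49.3 kb from the nearest control HOXB13 peak.

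MEIS1 had 9 control HOXB13 peaks and the widest spread of ratios to the control. At chr2:66692012-66692402 the count was 5.82 in the control, 17.1 with WT, 15.2 with G84E and 32.2 in PC-3. The log2 ratio to control was 1.55 (interval 0.82 to 2.35) with WT and 1.38 (0.64 to 2.18) with G84E, against the same control library. At chr2:66717676-66718290, the only MEIS1 site in at least 6 lists, the control was instead the highest: 17.5 in the control, 13.2 with WT and 7.02 with G84E. G84E over control was -1.32 (interval -1.99 to -0.67) and G84E over WT was -0.91 (-1.60 to -0.24). That site also had HDAC3 at 13.9 in the control, which was not called after knockdown, HOXB13 at 14.5 in PC-3, and a PC-3 H3K27ac region of 16.3 in the knockdown only. Both control HDAC3 peaks of MEIS1 went uncalled after knockdown, and 2 other HDAC3 peaks (11.8 and 11) appeared in the knockdown list. The only HDAC1 peak was 22.2.

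At MEIS2 the control HOXB13 peaks were few but included 1 of the strongest. At chr15:37370785-37371175 the count was 34 in the control (rank 1096 of 91430), 34.5 with WT, 24.7 with G84E and 31.8 in PC-3. G84E over control was -0.46 (interval -0.85 to -0.08). The site was called in no deacetylase, ATAC or H3K27ac list. At chr15:37262725-37263195 the count was 16.3 in the control, 27.3 with WT, 17.2 with G84E and 47.7 in PC-3, and HDAC3 was 11.6 in the control and not called after knockdown. WT over control was 0.74 (interval 0.27 to 1.24) and G84E over WT was -0.67 (-1.11 to -0.23). All 6 MEIS2 control peaks had a higher count with WT, with a median log2 ratio of 0.72, beside 61.6% higher and a median of 0.17 over the whole lists. Centred on that median, 4 of the 6 were higher.

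HOXB13 peaks of different libraries were staggered at chr15:37217543-37218325 in MEIS2. The control had 6.11, WT 10.7, G84E 19.2 and PC-3 6.51, and the control and G84E peaks did not touch, so only neighbouring pairs were compared. G84E over WT was 0.84 (interval 0.30 to 1.41), the highest such ratio in the windows. MEIS2 had 10 PC-3 HOXB13 peaks, and 7 of them met no control, WT or G84E peak, beside the 52.1% of the whole PC-3 list.

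By count GRHL2 held the most HOXB13 peaks in these lists, with 20 control, 34 WT, 27 G84E and 21 PC-3 peaks in its 290 kb. Per Mb, G84E was denser at FOXA1 (118 peaks, 1.23 times its list) than at GRHL2 (93.1, 0.971 times). Knockdown HOXB13 at GRHL2 was 0.603 times its list, from 2 peaks. The strongest control peak of all 5 windows was at chr8:102736610-102737288, with a count of 47.7 (rank 399 of the control list). WT was close to it at 42.7, and G84E was 24.2. G84E over control was -0.98 (interval -1.34 to -0.62) and G84E over WT was -0.82 (-1.18 to -0.46). HDAC3 at this site was 18.5 in control and 8.36 in knockdown cells (log2 ratio -1.15, interval -1.97 to -0.36). This was the only HDAC3 ratio past 2-fold, and it was -0.78 per bp and -0.70 after centring on the list median.

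The GRHL2 site with most factor lists, chr8:102450338-102451145, was called in 8. HOXB13 was 14.6 in the control, 12.7 with WT and 12.2 with G84E, and HDAC1 was 12.9. HDAC3 was 26.9 in control and 15.2 in knockdown cells (log2 ratio -0.82, interval -1.44 to -0.22), while ATAC was 9.13 and 14.5. The control HOXB13 peak ended 1 bp short of the HDAC3 peak and was joined to it through the other peaks of the site. The other site called in 8 lists, chr8:102619894-102620750, had the strongest PC-3 HOXB13 peak of the windows, 206.8 (rank 98 of 70766). In LNCaP its HOXB13 counts were within a narrow range, 22.4 in the control, 21.9 with WT and 19.5 with G84E. HDAC3 was called there in the knockdown only (14.4), ATAC in the control only (3.87), and PC-3 H3K27ac was 78.2 in the control and 94.7 after knockdown.

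Of the 16 GRHL2 control peaks met by WT, 8 were higher and 8 lower with WT, with a median log2 ratio of 0.09. The largest differences were on the higher side. At chr8:102591338-102591728 the count was 24.7 in the control, 41.7 with WT, 25.1 with G84E and 38.3 in PC-3, with WT over control at 0.76 (interval 0.37 to 1.15). At chr8:102507446-102507808 it was 13.7 in the control, 26.1 with WT and 15.6 with G84E, with WT over control at 0.93 (0.42 to 1.46). At chr8:102533807-102534264, G84E was instead the highest, with 9.89 in the control, 13.4 with WT and 19.7 with G84E. The order of the 3 forms thus differed from site to site within the window.

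Over all windows, the 3 LNCaP forms were close in median level at peaks called in both libraries of a pair. Single log2 ratios ran from -1.35 to 1.55, and peaks called in only 1 library of a pair have no ratio. The median log2 ratio of WT over control was 0.02 at 33 peaks (whole lists 0.17). Of these, 18 were higher, beside 61.6% of the list, and 15 lower, beside 38.1%. Past 2-fold, 1 of the 33 was higher, beside 10.3% of the list, and 0 were lower, beside 1.48%. For G84E over control the median was -0.18 at 28 peaks (whole lists 0.02), with 1 past 2-fold higher, beside 6.44%, and 1 lower, beside 3.49%. Without the GRHL2 window this median was 0.04. G84E was below WT at 30 of 44 shared peaks, 4 of which changed sign on centring. The median was -0.22, and that of the whole lists was also below 0, at -0.13. The share of peaks lower with G84E over the whole lists was not computed. Past 2-fold, 0 were higher, beside 0.818%, and 1 was lower, beside 2.86%. At the 25 sites called in all 3 libraries, WT was highest at 12, the control at 8 and G84E at 5.

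**Figure D4:**
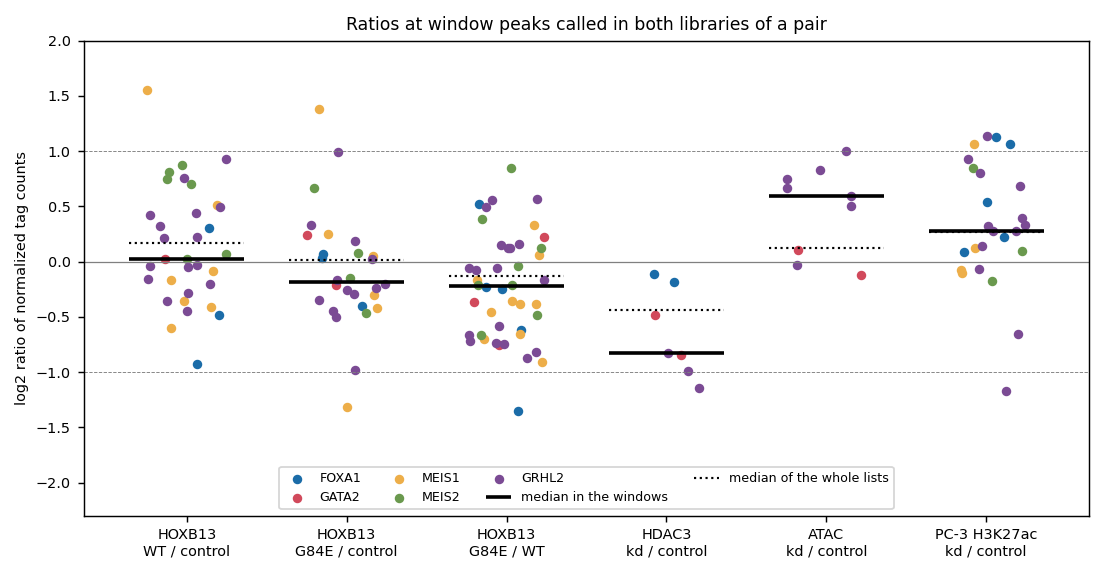
Log2 ratio of normalized tag counts (vertical axis) at window peaks called in both libraries of each pair (kd, knockdown); each point is 1 peak or H3K27ac locus coloured by window, solid bars are window medians and dotted bars medians of the whole lists. The 7 HDAC3 points all lie below 0, 7 of the 9 ATAC points lie above 0, and the H3K27ac median of 0.28 lies on that of its lists. Over the whole lists 80.3% of shared HDAC3 peaks were lower and 61.6% of shared ATAC peaks were higher.

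HDAC3 peaks were about as many after knockdown as before, but only some were at the same place. The control had 16 and the knockdown 19, and 7 of the 16 were called again, beside 47.7% of the list. Of the 19 knockdown peaks 7 had a control peak, beside 52.2% of the list. GRHL2 accounted for most of the new ones: it went from 5 to 10 peaks, and 7 of the 10 had no control peak. The highest of these were 26.2 and 24.3, at chr8:102504362-102504726 and chr8:102506233-102506597, in a stretch that also held ATAC peaks of both libraries and HDAC1 at 17.9. With overlap replaced by peak centres within 100 bp, only 1 of the 16 control peaks was called again (6.25%), beside 21.3% of the list.

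At the 7 shared HDAC3 peaks, every count was lower after knockdown, beside 80.3% of shared peaks over the whole lists. The median log2 ratio was -0.82, against -0.44 over the whole lists, with 1 past 2-fold lower, beside 15.2% of the list, and 0 higher, beside 0.414%. Peak width was 471 bp for control HDAC3 and 365 bp for knockdown HDAC3, and per bp 5 of the 7 were lower, with a median of -0.45 against -0.07 for the lists. Without GRHL2 the median at the other 4 was -0.33.

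A control HDAC3 peak of 234.2 at chr8:102596824-102597294 in GRHL2 (rank 102 of 33964) had no knockdown peak, while ATAC peaks beside it were called in both libraries. The next HDAC3 count in the windows was 31.5. The nearest control HOXB13 peak lay 395 bp away and had 24.7 in the control, 34.8 with WT and 22.0 with G84E. ATAC peaks called on that side in both libraries were 4.43 and 7.85 at the first and 4.15 and 6.28 at the second, from control to knockdown. HDAC1 was not called there, and PC-3 HOXB13 was 25.7.

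Overlap of HOXB13 with HDAC3 was at the level of the whole list. The shares meeting ATAC (Wilson interval 1.26 to 15.1%) and HDAC1 (0 to 8.03%) had intervals that hold their list shares. Of the 44 control HOXB13 peaks, 6 met an HDAC3 peak, beside 13.4% of the list, 2 met an ATAC peak, beside 10.3%, and 0 met an HDAC1 peak, beside 1.94%. FOXA1 held 3 of the 6 HDAC3 overlaps, from 6 HOXB13 peaks, and GATA2 held none. Of the 77 HDAC3, HDAC1 and ATAC peaks in the windows, 57 met no HOXB13 peak of control, WT or G84E, beside 61.2% of these lists, and at GATA2 all 14 met none. The median distance from a control HDAC3 peak to the nearest control HOXB13 peak was 0.595 kb (whole list 1.84 kb), from an ATAC peak 1.29 kb (1.73 kb) and from an HDAC1 peak 3.72 kb (5.06 kb), with the farthest at 49.3 kb for HDAC3 and HDAC1 and 19.7 kb for ATAC.

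ATAC peaks called in both libraries were few, and nearly all counting intervals of their ratios include 0. Of the 19 control ATAC peaks 9 were called again, beside 50.0% of the list, and of the 14 knockdown peaks 9 had a control peak, beside 61.9%. The shared peaks were 7 at GRHL2 and 2 at GATA2. Their median log2 ratio was 0.60, against 0.12 for the lists, with 1 past 2-fold higher, beside 2.65%, and 0 lower, beside 0.469%. That peak, at chr8:102504529-102504625, had 4.70 in control and 9.42 in knockdown cells (log2 ratio 1.00, interval 0.04 to 1.99), the only one of the 9 whose interval excludes 0, and its ratio was 0.81 per bp and 0.88 centred on the list median. Of the 9, 7 were higher after knockdown, beside 61.6% of shared ATAC peaks over the whole lists. At GRHL2 6 of 7 were higher, with a median of 0.67, and at GATA2 the median was -0.01, so the pooled value rests on GRHL2. Peak width was 96 bp for control ATAC and 111 bp for knockdown ATAC, and per bp the pooled median was 0.40 against -0.07 for the lists. Control ATAC peaks in the windows had a median count of 4.15, beside 5.26 for the list. The lowest count in the knockdown ATAC list was 3.14, and the part of this floor in the ratios was not tested. All 3 control ATAC peaks at FOXA1 and the 1 at MEIS2 went uncalled. The MEIS2 control peak had 2.77, below 3.14, so the same count could not appear in the knockdown list. In the knockdown only, 2 FOXA1 peaks of 4.71 and 1 MEIS2 peak of 3.53 were called.

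PC-3 HOXB13 shared places with LNCaP about as often as over the whole list. Of its 44 peaks 13 met an LNCaP control peak, beside 27.2% of the list, and 20 met no control, WT or G84E peak, beside 52.1%. Joined into sites, 18 of the 44 had none of these forms. At the 26 sites shared with an LNCaP form the median PC-3 count was 27.1, and at the 18 others it was 18.6. The FOXA1 peaks were strong as a group, with 14.5 as the lowest of 7, 45.2 as the median and 56.8 as the highest, against a list median of 12.7. The antibodies, cell lines and peak widths (390 and 290 bp) all differ between the PC-3 and LNCaP HOXB13 libraries, and their parts in these differences cannot be told apart.

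PC-3 HOXB13 peaks inside H3K27ac were found in 4 of the 5 windows. Of the 44 PC-3 peaks, 19 overlapped a control H3K27ac region, beside 34.5% of the list, and 6 of the 7 at FOXA1 did (Wilson interval 48.7 to 97.4%), against 9 of 21 at GRHL2, 2 of 10 at MEIS2, 2 of 5 at MEIS1 and 0 of 1 at GATA2. Control H3K27ac covered 37.8 kb of the 110 kb FOXA1 window, 33.0 kb of 290 kb at GRHL2, 9.73 kb of 240 kb at MEIS1 and 8.93 kb of 320 kb at MEIS2. The FOXA1 interval overlaps that of GRHL2 (24.5 to 63.5%). Both treat peaks as independent, although the FOXA1 peaks of 26.8, 48.1 and 45.2 lay in 1 H3K27ac region. The windows were not tested against each other, and the part of coverage in the difference was not tested. The median PC-3 HOXB13 count was 27.8 inside H3K27ac and 16.6 outside it.

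The FOXA1 window carried one of the largest H3K27ac domains of PC-3. The domain chr14:38047608-38070470 had a count of 2540 in control and 3686 in knockdown cells (log2 ratio 0.54, interval 0.48 to 0.60), ranking 39 of 50352 regions in the control and 21 of 49632 after knockdown. Its called length was 22.4 kb and 22.6 kb, so the density went from 113 to 163 tags per kb. PC-3 HOXB13 peaks of 26.8, 48.1 and 45.2 lay within it. LNCaP peaks at the same coordinates were of mixed kinds, among them control HOXB13 (10.8), WT (26.8), HDAC1 (20.1) and knockdown HDAC3 (20.9).

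At FOXA1, 5 H3K27ac loci were called in both PC-3 libraries, and all 5 counts were higher after knockdown, 3 of them also after centring on the list median. Beside the domain, chr14:38014559-38017936 went from 48.1 to 105 (log2 ratio 1.13, interval 0.71 to 1.56) and chr14:38034145-38038526 from 122.3 to 255.9 (1.07, 0.80 to 1.33). At chr14:38088927-38095941 the values were 254.6 and 298 (0.23, 0.02 to 0.43), and the remaining locus had 16.7 and 17.7. At 4 of the 5 the counting interval lay above 0. Over the whole window the counts summed to 2995 across 37.8 kb in control and 4417 across 42.0 kb in knockdown cells, or 79.3 and 105 tags per kb.

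The other windows had weaker H3K27ac. At GRHL2, 13 loci were called in both libraries, of which 10 were higher and 3 lower after knockdown, and the counts summed to 743 in control and 951 in knockdown cells. The strongest was chr8:102462022-102467065, with 156.4 and 206.3 (log2 ratio 0.40). The lowest ratio of counts in the windows was at chr8:102587219-102588965, with 23.4 and 10.4 (log2 ratio -1.17, interval -2.18 to -0.25). Its called length went from 1746 to 1000 bp, and per bp the ratio was -0.37. At MEIS2, chr15:37390011-37394727 had 84.9 and 153.1 (0.85, 0.53 to 1.18), and HDAC1, HDAC3 and ATAC peaks of the LNCaP control fell in the same region. At MEIS1, chr2:66801555-66803524 had 18 and 37.7 (1.07, 0.36 to 1.79), while the strongest locus had 54.8 and 51. GATA2 had no region in either list.

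These H3K27ac values stand beside a general difference between the libraries. Of the 30 control regions in the windows 25 were called again, beside 79.4% of the list. The median log2 ratio at the 25 shared loci was 0.28 and that of the whole lists was 0.27, with 4 past 2-fold higher, beside 8.44%, and 1 lower, beside 2.50%. Centred on the list median none of the 4 stays past 2-fold, and per bp only 1 of the 4 does and the lower one does not. Over the whole lists 70.1% of shared loci were higher after knockdown. The share of tags in regions was 38.9% in the control and 46.2% after knockdown. Relative to the list median of 0.27, the FOXA1 domain stood 0.27 higher on the log2 scale. Whether the difference at FOXA1 comes with HOXB13 loss or with the libraries was not tested, and with 1 library per condition the 2 cannot be told apart.

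**Figure D5:**
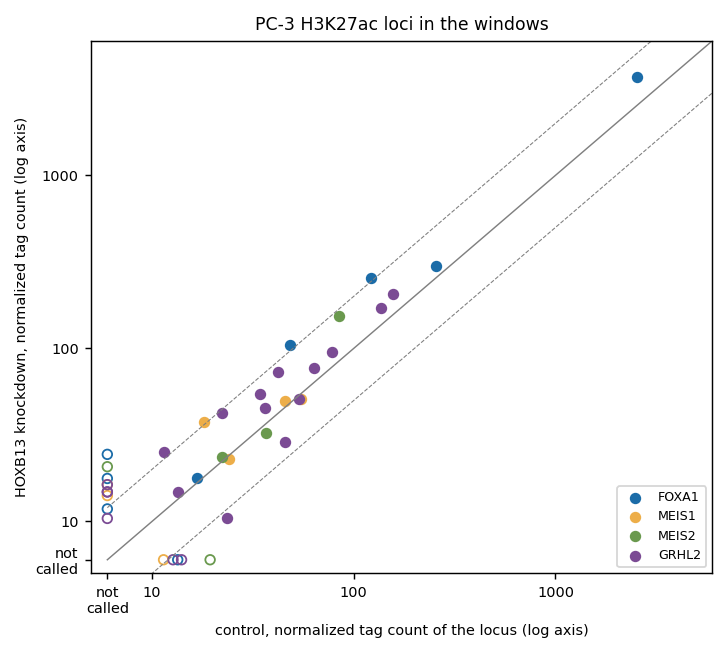
H3K27ac normalized tag count of each PC-3 locus in the windows, control (horizontal, log axis) against HOXB13 knockdown (vertical, log axis); filled points were called in both libraries, open points in 1, the solid line is equality and the dashed lines are 2-fold. The FOXA1 domain sits alone at 2540 and 3686, and 19 of the 25 filled points lie above the solid line.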

How the data were processed

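The submitters' processing notes list Bowtie2, HOMER 4.2 and hg19. HOMER findPeaks was run by the authors on each library separately at a false discovery rate of 0.001 and without an input library, per the file headers, so DNA copy number was not corrected for. The 10 factor lists hold peaks of 1 width per library that exceed the surrounding 10000 bp 4-fold, and the 2 H3K27ac lists hold regions stitched from windows of 1000 bp. The deposited signal is the normalized tag count, per 10000000 tags. The deposited findPeaks score ranked peaks within a list in an alternative, and the deposited fold over local background described lists; both are the authors' values.

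Whole tags were recovered from the counts and header totals; all values (100%) were whole within 0.25 tags. Peaks overlapping by at least 1 bp were joined into sites, each library's value at a site being its strongest peak; H3K27ac regions were summed into loci. Where a peak met several, the highest count was used. Shares have Wilson and ratios exact (Clopper-Pearson) 95% intervals. Called means present in a list, or past 2-fold for a ratio. With 1 library per group no test was made. Scripts were tested on simulated data.

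Named sites were, per window, the highest of each list, those in at least 6 of 12 lists, those with control HOXB13, HDAC3 and ATAC, and the largest rise and fall per pair by site values (50 sites); other sites given were chosen after their values were seen. Windows, members and lists were chosen with earlier results of these data known. Other HOX partner, FOXA, GATA and GRHL family genes, and markers of the cell lines, were not analysed here, because no hg19 annotation was used. Alternatives were 50% overlap, centre distance (100 bp, or 500 bp for H3K27ac), the better-scoring 50% of each list, peaks wholly in the window, tag density and centring. Python 3.11.15, numpy 2.4.6, pandas 2.3.3 and scipy 1.17.1 were used.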

Additional observations from a re-analysis of the deposited data

How the results depend on the processing

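The 11 planned shares were recomputed with 50% overlap, centre distance, the better-scoring 50% of each list and peaks wholly in the window. The 6 planned medians were recomputed per bp, centred, in the better-scoring 50% and, except for H3K27ac, with 50% overlap. Most moved by less than their interval. With peak centres within 100 bp, 6.25% of control HDAC3 peaks were called again, 5.26% of knockdown HDAC3 peaks had a control peak, and 4.55% of control HOXB13 peaks met HDAC3, against 43.8%, 36.8% and 13.6% with overlap. Over the whole lists the same setting gave 21.3%, 23.4% and 7.28%. With centres within 500 bp, 25% of PC-3 HOXB13 peaks lay in H3K27ac (43.2% with overlap), beside 20.3% of the whole list. In the better-scoring 50% of every list, 0% of control HOXB13 peaks met ATAC (4.55% in full lists), and 100% of the 5 knockdown ATAC peaks had a control peak (64.3% of 14). Over the better-scoring 50% of the whole lists these shares were 8.13% and 65.1%. Centred on the list median, the H3K27ac median was 0.0083. The shares of knockdown peaks, of G84E peaks met by WT and of PC-3 peaks in H3K27ac, and the medians without GRHL2, were added after the data were seen. Of 146 single ratios, 11 changed sign per bp and 15 on centring, none of them past 2-fold. Of the 11 past 2-fold, 6 fell below it per bp and 6 on centring, all of them HDAC3, ATAC or H3K27ac. Centring removes the list median by construction; for the other changes the cause was not tested. Counts of 1 to 3 peaks, as at GATA2, limit every share by window. No paired analysis was possible because each group holds 1 library.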
